A study of Mus musculus with 4 samples.

Results

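The histone-rich cells described here were 80 of the 1167 single cells with at least 2000 unique molecular identifiers (UMIs), out of 1249 cells deposited. They were chosen by a score, the share of a cell's UMIs that fell on the 65 genes whose symbols start with Hist1h or Hist2h. The 117 cells in the top 10% by this score were taken, and the 37 of them that were also in the top 10% by the summed share of 8 mitotic genes (Mki67, Top2a, Ccnb1, Ccna2, Aurkb, Kif23, Nusap1 and Prc1) were left out. The 584 cells in the lower 50% by histone score (histone-low cells) and the 117 cells in the top 10% by the mitotic genes (mitotic cells) served for comparison, and 22 of the mitotic cells were also histone-low. The selection used the counts of the histone genes and of the 8 mitotic genes, so these are described below without a test, and tests were kept to genes that the selection did not use. Those genes were measured in the same cells.

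The cells were sorted by tdTOMATO fluorescence, 1 to a well, from testes of 4 wk old mice, and RNA-seq read the 3′ end of each transcript. All mice of both groups carry Eomes-iCreERt2-tdTomato, a knock-in, so the cells were chosen by the reporter protein made from the Eomes locus and not by Eomes transcript. Plzf +/+ mice have normal Plzf, and Plzf lu/lu mice carry the luxoid mutation of this gene, which the files list as Zbtb16. Plzf +/+ cells filled plates 1 and 2 and most of plate 4, and Plzf lu/lu cells filled plate 3 and the rest of plate 4, which gave 3 Plzf +/+ and 2 Plzf lu/lu libraries. Since a single genotype filled each of plates 1 to 3, an effect of plate and an effect of genotype cannot be told apart there. No animals are named in the sample labels, and p-values therefore measure the spread between these libraries, which may be technical. The 5 libraries held 239369 to 2590225 UMIs in the cells used. Of the 376 well barcodes, 358 occur in at least 2 libraries, since each plate used the same set. On plate 4, 5 Plzf +/+ cells lie in wells that the labels do not give to that genotype, and they were kept as the count table lists them. No doublets were removed.

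Most histone protein is made in S phase, when DNA is copied and new chromatin needs new histones. The genes for the core histones H2A, H2B, H3 and H4 and for the linker histone H1 lie in clusters, are transcribed in S phase, and give messengers that end in a short stem-loop in place of a poly(A) tail. In the testis, spermatogonia divide by mitosis, the spermatogonial stem cells among them carry the GDNF receptor GFRA1, and STRA8 and KIT mark cells that have turned to differentiation.

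Of the 65 histone genes, 64 were matched to RefSeq, with 55 on chromosome 13 and 9 on chromosome 3. The stretch of 150 bases before the start of 4 genes is shown because these genes, 1 each of the families H4, H2A, H3 and H1, were among the most abundant in the histone-rich cells and are printed with the motifs they share. The sequences are from RefSeq (GRCm38.p6) and read 5′ to 3′ on the strand of the gene. Hist1h4d is taken from chr13:23581418-23581567, Hist1h2ab from chr13:23750938-23751087, Hist1h3b from chr13:23752195-23752344 and Hist1h1a from chr13:23763518-23763667, all on the plus strand. Capitals mark TATAAA and CCAAT on either strand, which do not overlap each other here.
Hist1h4d: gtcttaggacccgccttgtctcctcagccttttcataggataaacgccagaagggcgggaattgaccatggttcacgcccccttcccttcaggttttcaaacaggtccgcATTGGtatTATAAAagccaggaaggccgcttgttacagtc
Hist1h2ab: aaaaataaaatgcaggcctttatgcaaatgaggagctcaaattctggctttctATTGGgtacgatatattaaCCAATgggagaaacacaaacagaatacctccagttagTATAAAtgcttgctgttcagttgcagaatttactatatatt
Hist1h3b: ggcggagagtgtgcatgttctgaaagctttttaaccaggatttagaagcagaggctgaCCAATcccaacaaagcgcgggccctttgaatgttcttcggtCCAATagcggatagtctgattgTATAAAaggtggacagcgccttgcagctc
Hist1h1a: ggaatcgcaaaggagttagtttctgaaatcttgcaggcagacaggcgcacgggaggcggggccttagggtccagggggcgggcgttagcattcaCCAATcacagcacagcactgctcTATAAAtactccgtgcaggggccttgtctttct
Within 250 bases before the start, TATAAA on either strand was found for 28 of the 57 histone genes with a RefSeq promoter (49.1%) and for 14.3% of all 27025 genes. CCAAT on either strand was found for 48 of the 57 histone genes (84.2%) and for 37.5% of all genes. Both motifs were found for 40.4% of the histone genes and 5.16% of all genes. These are matches of letters and were not tested as binding sites.

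The stem-loop at the 3′ end is shown because it is the shared end of these messengers. It was found by a script in the 3′ untranslated region of 42 of the 55 histone genes for which GENCODE vM1 annotates such a region (76.4%), against 77 of 19915 genes in all (0.387%). The form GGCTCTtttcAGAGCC, in which capitals mark the paired stem and small letters the loop, was found in 25 histone genes, among them Hist1h2ab, Hist1h3b and Hist1h1a.
Hist1h2ab: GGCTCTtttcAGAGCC
Hist1h4d: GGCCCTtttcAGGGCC
H2afx: GGCCCTtttaAGGGCC
H2afx, which encodes the variant H2A.X, lies outside the histone score and also holds a stem-loop. The barcode primer of this protocol ends in a run of T, and how messengers without a poly(A) tail came to be counted was not tested.

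The histone score of the 80 cells ran from 0.511% to 3.44% of UMIs with a median of 0.822%, that of the histone-low cells had a median of 0.0414% and a maximum of 0.0813%, and that of the mitotic cells had a median of 0.258%. These values chose the groups and are given as a description. In counts, the histone-rich cells had 12 to 385 histone UMIs (median 66.5), and 100 of the 584 histone-low cells had none. The lowest histone-rich cell stood at 0.511% (49 of 9590 UMIs) and the highest cell outside the top 10% at 0.509% (17 of 3341 UMIs), so the limit fell within a continuous range. The highest mitotic score of a histone-rich cell was 0.228%, and the lowest of a cell left out as mitotic was 0.231%. The plot of both scores shows no gap at either limit.

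**Figure D1:**
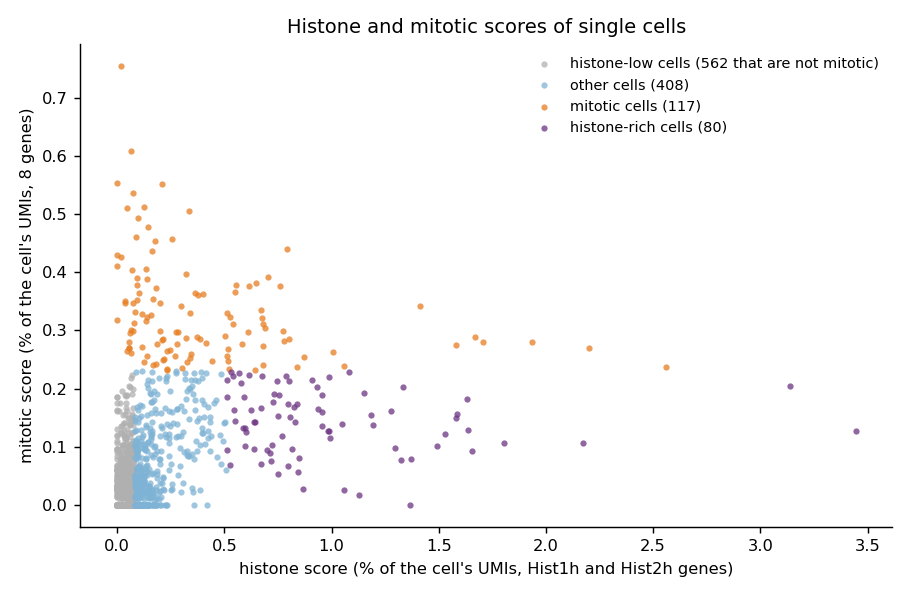
Each point is 1 of the 1167 cells. The horizontal axis gives the histone score and the vertical axis the mitotic score, both as a percentage of the cell's UMIs; colours mark the 80 histone-rich cells, the 117 mitotic cells, the histone-low cells that are not mitotic and the other cells. The histone-rich cells extend from 0.511% to 3.44% on the horizontal axis and stay below 0.231% on the vertical axis.

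By library, the histone-rich cells were 31 of 307 cells (10.1%, exact Clopper-Pearson 95% interval 6.96 to 14.03) of Plzf +/+ plate 1, 8 of 276 (2.899%) of Plzf +/+ plate 2 and 18 of 251 (7.17%) of Plzf +/+ plate 4. They were 19 of 304 (6.25%) of Plzf lu/lu plate 3 and 4 of 29 (13.8%, interval 3.89 to 31.7) of Plzf lu/lu plate 4. Plate 2 of Plzf +/+ was lowest, and the Plzf lu/lu library of plate 3 lay within the range of the Plzf +/+ libraries. The intervals cover counting error only. The mean share was 10.0% ± 5.33 (SD, n = 2) in Plzf lu/lu and 6.72% ± 3.62 (SD, n = 3) in Plzf +/+, a difference of 3.30 percentage points (two-sided exact permutation test over libraries, p = 0.5, where the smallest possible value is 0.1). Leaving out plate 4 of Plzf lu/lu turned the difference to -0.473, so its direction rests on 4 of 29 cells. The histone-rich cells had a median of 8228.5 UMIs, the histone-low cells 5731.5 and the mitotic cells 7272. The median depth of histone-rich cells was above that of histone-low cells in 3 of 5 libraries, by a mean of 1084.9 ± 3229 UMIs (SD, n = 5; two-sided exact permutation test of the pairs, p = 0.5, where 5 pairs cannot reach 0.05). It was higher in Plzf +/+ plates 1, 2 and 4, at 9590, 9732.5 and 7233.5 against 4976.5, 6173 and 5482 UMIs. In Plzf lu/lu plates 3 and 4 it was lower, at 5270 and 4203.5 against 7049 and 6924.5.

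The cells carried transcripts of germ cells. Dazl, an RNA-binding protein of germ cells, was found in 78 of the 80 cells (97.5%) and the germ cell helicase Ddx4 in 68 (85.0%). Levels are given as CPM, a gene's UMIs for every 1000000 UMIs of the summed cells. Markers of later germ cells were present: the 14 spermatid genes summed to 1236 CPM (221 to 4386 by library, highest in Plzf +/+ plate 4), the 14 spermatocyte genes to 1739 CPM (1010 to 3616, highest in Plzf +/+ plate 2) and the Sertoli cell genes to 379 CPM, against 6777, 3538 and 663 CPM in the histone-low cells. For comparison, genes of undifferentiated spermatogonia summed to 810 CPM. Over 0.5% of UMIs fell on the spermatid list in 3 of 80 cells, on the spermatocyte list in 3 and on the Sertoli cell list in 1. Leydig and macrophage genes, of which 2 of 5 each could be measured, summed to 1.42 CPM each, peritubular myoid genes to 5.68, endothelial genes to 8.53 and erythroid genes to 4.26, and Insl3, Csf1r, Myh11, Vwf and Hba-a1, defining genes of these types in the same order, were at 0. The 6 genes of T and NK cells summed to 43 UMIs, of which 37 were in 1 cell of Plzf lu/lu plate 3 (Nkg7 13, Cd3g 11, Ptprc 7, Cd3e 3 and Cd2 3 UMIs). That cell had 24187 UMIs, among them 31 of Dazl and 10 of Ddx4. It was kept, and values without it are given where a call depends on it.

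All 5 core and linker histone families were present in every library. H4 genes made up 32.9% of the histone UMIs of the histone-rich cells, H2A genes 31.9%, H1 genes 13.5%, H2B genes 11.3% and H3 genes 10.3%. H2A took 30.2% to 35.9% of the histone UMIs across the 5 libraries and H3 9.58% to 11.4%, while H1 was widest, at 12.1% to 21.3%, with the highest share in Plzf +/+ plate 2. In the histone-low cells H4 genes took 45.1% and H3 genes 6.41% of the histone UMIs. The level of the H3 genes was 35.9 times that in the histone-low cells and the level of the H4 genes 16.3 times, so the families did not rise in equal proportion. Since histone messengers chose the cells, the size of these folds is set in part by the selection.

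A few genes carried most of the histone messengers. The 5 genes with most UMIs held 51.4% of the histone UMIs and the 10 with most held 65.7%. A histone-rich cell had UMIs of 4 to 51 different histone genes with a median of 22, against a median of 2 in histone-low cells. Of the 65 genes, 60 had a UMI in the histone-rich cells, and all 60 had a higher level there than in the histone-low cells. Testis-specific histone genes of the score summed to 324 CPM against 15.9 in the histone-low cells, and those known to gain a poly(A) tail outside S phase to 368 against 27.8. The exceptions were Hist2h2aa1, Hist2h2aa2, Hist2h3c2 and Hist1h2br, with no UMI in the histone-rich cells and 1 to 25 UMIs in the histone-low cells, and Hist1h2bq, with none in either. Hist1h2bp differed little, with 27.0 CPM in the histone-rich and 25.1 in the histone-low cells. Genes of this family are close copies of each other, so reads can be shared among them and levels of single members are uncertain.

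Hist1h4d, an H4 gene, was the leading gene. Its level in histone-rich cells was 3074, 1564 and 2145 CPM in Plzf +/+ plates 1, 2 and 4 and 2390 and 1653 in Plzf lu/lu plates 3 and 4, against 137 to 248 in the histone-low cells. The lowest library of histone-rich cells was above the highest of histone-low cells. Hist1h4d alone gave a median of 26.2% of a cell's histone UMIs, from 9.09% to 75.4%, and all 80 cells had at least 1 of its UMIs, as did 59.8% of the histone-low cells. Hist1h2ab, an H2A gene and one of the given markers, had 1133, 649, 715, 705 and 781 CPM in the same order of libraries, against 12.2 to 31.9 in histone-low cells. It was found in 75 of 80 histone-rich cells (93.8%) and in 10.8% of histone-low cells, a wider contrast between cells than that of Hist1h4d.

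The other given markers also stood apart, by 32.1 times (Hist1h1a) to 63.9 times (Hist1h3b) over the summed cells. Hist1h1a, a linker histone gene, was at 686, 362, 423, 408 and 643 CPM in the histone-rich cells and at 7.99 to 25.9 in the histone-low cells. The H2A gene Hist1h2ae was at 340 to 598 against 5.74 to 24.6, and the H3 gene Hist1h3b at 193 to 395 against 1.30 to 7.99. Hist1h1b, another linker histone gene, was at 91.9 to 298 against 2.87 to 15.97, with its highest level in Plzf +/+ plate 2, the library where H1 genes took the largest share. All 5 markers thus had levels that did not overlap between the groups, as their selection implies.

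**Figure D2:**
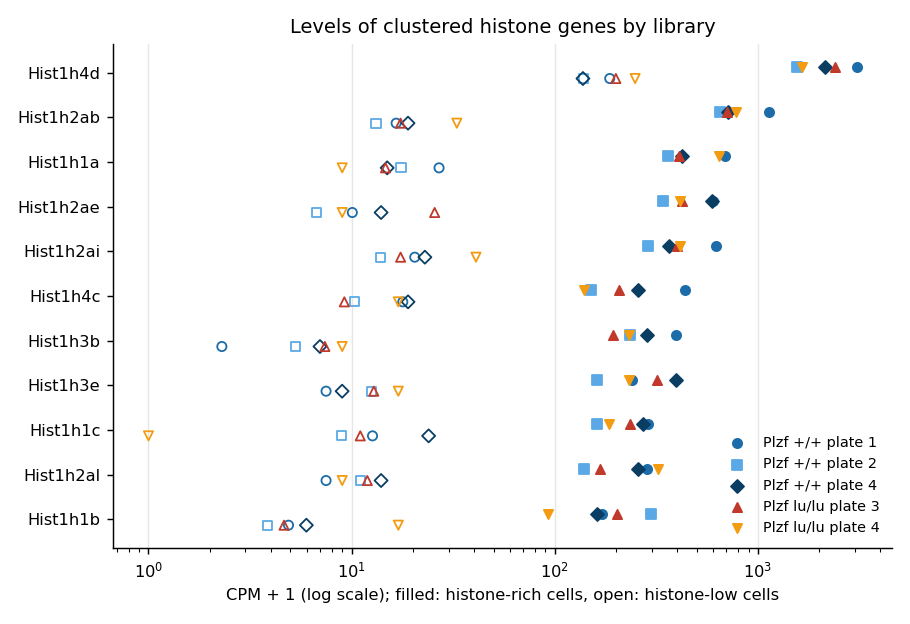
Levels of the 10 histone genes with most UMIs in the histone-rich cells and of the given markers. The horizontal axis is a log scale of the level in CPM, with 1 added; filled symbols are histone-rich cells and open symbols histone-low cells, 1 symbol per library. For each gene shown, the 5 filled symbols lie to the right of the 5 open ones, and Hist1h4d is highest in both groups.

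The 8 mitotic genes used to remove cells were not low in all respects in the histone-rich cells. Top2a, the topoisomerase that untangles DNA, was at 472 CPM in the histone-rich cells, 107 in the histone-low and 702 in the mitotic cells. Aurkb, a kinase of chromosome segregation, was at 104 in the histone-rich and 103 in the mitotic cells. Ccnb1, the cyclin that drives entry to mitosis, was at 205 in the histone-rich, 216 in the histone-low and 783 in the mitotic cells. Mki67, a marker of cycling cells, was at 217, 63.3 and 629. These genes belong to the rule and were not tested.

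To ask whether the label of replicating cells rests on more than histones, genes outside the rule were compared between histone-rich and histone-low cells, with UMIs summed per library and group, the library as a covariate and edgeR's quasi-likelihood test. Of 4917 genes tested, 651 had a Benjamini-Hochberg adjusted p under 0.05 (13.2%), 334 of them higher (6.79%) and 317 lower (6.45%) in the histone-rich cells, and the median log2 fold change was -0.03. DESeq2 called 435. The levels of the 5 libraries stood apart from those of histone-low cells, without overlap, for 2.93% of genes in the higher and 3.95% in the lower direction. UMIs of mitochondrial genes, a sign of RNA quality, took 6.63%, 5.40%, 6.16%, 5.82% and 7.20% in the histone-rich cells of Plzf +/+ plates 1, 2 and 4 and Plzf lu/lu plates 3 and 4, against 4.67%, 3.95%, 4.67%, 4.11% and 3.33% in the histone-low cells. The share was higher in the histone-rich cells of all 5 libraries, and its part in the calls was not tested. The count depended on the libraries: it was 307 without Plzf +/+ plate 1, 377 without Plzf +/+ plate 4 and 405 without Plzf lu/lu plate 3.

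Genes that load the replicative helicase rose. Of 20 licensing genes 17 were tested, 9 rose and none fell, with a median log2 fold change of 0.65. For this and the lists that follow, the shares over all genes tested were 6.79% higher and 6.45% lower. Mcm6, a subunit of the MCM helicase, was at 369, 372 and 292 CPM in the histone-rich cells of Plzf +/+ plates 1, 2 and 4 and 352 and 459 in Plzf lu/lu plates 3 and 4, against 197, 150, 123, 150 and 112 in the histone-low cells. The groups did not overlap (log2 fold change 1.29, SE 0.17, edgeR adjusted p = 5.59e-06). Gmnn, the inhibitor that prevents a further round of licensing, was at 276 to 343 against 111 to 184 (log2 fold change 1.19, SE 0.18, edgeR adjusted p = 3.03e-05), also without overlap. Orc6, Gins1, Mcm3, Cdt1, Orc1, Cdc7 and Mcm5 passed too, chosen for naming after their values were seen. Not every MCM subunit passed: Mcm2 had a log2 fold change of 0.20 (SE 0.17, edgeR adjusted p = 0.507) and Mcm7 one of 0.51 (SE 0.20, edgeR adjusted p = 0.0867).

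Genes of the replication fork rose in like number. Of 26 genes 21 were tested, 11 rose and none fell, with a median log2 fold change of 0.66. Pcna, the sliding clamp, was at 702, 638, 956, 863 and 735 CPM in the histone-rich cells, in the order Plzf +/+ plates 1, 2 and 4 and Plzf lu/lu plates 3 and 4, and at 473, 457, 360, 509 and 431 in the histone-low cells. Each library of histone-rich cells was above all libraries of histone-low cells (log2 fold change 0.87, SE 0.13, edgeR adjusted p = 4.14e-05). Prim1, the primase subunit that starts each Okazaki fragment, was at 219, 191, 190, 249 and 413 against 73.9, 42.3, 52.9, 86.6 and 39.9, again with no overlap (log2 fold change 1.90, SE 0.22, edgeR adjusted p = 3.80e-07). 2810417H13Rik, which encodes the PCNA-associated factor, was at 45.9 to 153 CPM against 16.9 to 26.5. It is counted among the 11, but it was low in the histone-low cells and entered the test through the histone-rich cells. Its fitted fold is therefore not given and its call is not read as a result. Lig1, the ligase that joins Okazaki fragments, rose in all 5 libraries (log2 fold change 1.10, SE 0.15, edgeR adjusted p = 3.58e-06) with overlapping ranges of 230 to 692 and 184 to 368.

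Genes that act beside the fork were also higher. Of 22 checkpoint and repair genes tested 9 rose and none fell (median log2 fold change 0.58), led among the named genes by Tipin, which stabilises stalled forks (263 to 372 against 105 to 166 CPM, log2 fold change 1.18, SE 0.18, edgeR adjusted p = 2.42e-05). Of the 4 genes that carry DNA methylation through replication 3 rose (median 0.94): Hells, a chromatin remodeller, by 1.07 (SE 0.15, edgeR adjusted p = 8.30e-06), the maintenance methyltransferase Dnmt1 by 1.01 (SE 0.19, edgeR adjusted p = 0.000371) and its partner Uhrf1 by 0.87 (SE 0.25, edgeR adjusted p = 0.0188). Hells and Dnmt1 did not overlap between the groups. Cdca7, the fourth, had a log2 fold change of 0.16 (SE 0.16, edgeR adjusted p = 0.564).

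The supply of nucleotides followed in part. Of 15 genes tested 5 rose and none fell (median log2 fold change 0.33). Among those that rose were Rrm1, the large subunit of ribonucleotide reductase, by 1.01 (SE 0.21, edgeR adjusted p = 0.00106), Dut, which removes dUTP, by 0.93 (SE 0.19, edgeR adjusted p = 0.00116), and thymidylate synthase Tyms by 0.82 (SE 0.23, edgeR adjusted p = 0.0171). Of 17 genes for the processing of histone messengers and for histone chaperones 4 rose and none fell (median 0.29). These were Nasp, a chaperone of H1 and H3 (log2 fold change 0.59, SE 0.14, edgeR adjusted p = 0.00357), and Asf1b, Hat1 and Slbp. Slbp, the protein that binds the stem-loop shown above and was named after its value was seen, had a log2 fold change of 0.65 (SE 0.21, edgeR adjusted p = 0.0396). Of 24 control genes of the step from G1 to S only 9 could be tested, and Ccne2 alone rose (median 0.10). Cdk4 had a log2 fold change of 0.20 (SE 0.17, edgeR adjusted p = 0.528) and Ccnd2 one of -0.18 (SE 0.19, edgeR adjusted p = 0.601).

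Histone genes outside the score rose as well. Of 10 tested from a list of 14, 6 rose and none fell (median log2 fold change 0.63). H2afx, whose product is phosphorylated at broken DNA, was at 180, 85.1, 73.0, 152 and 91.9 CPM in the histone-rich cells against 23.96 to 36.5 in the histone-low cells. It is counted among the 6, but it entered the test through the histone-rich cells, so its fitted fold is not given and its call is not read as a result. H3f3b, a gene for the replacement histone H3.3, rose less, from 582 to 659 up to 808 to 1029 CPM (log2 fold change 0.63, SE 0.12, edgeR adjusted p = 0.000415), and the second H3.3 gene, H3f3a, had a log2 fold change of 0.23 (SE 0.16, edgeR adjusted p = 0.385). Gm12260, which RefSeq lists as the histone H3 gene H3f4 on chromosome 11, came first by fitted rise among genes of sufficient level outside the rule. It was at 461, 191, 401, 332 and 321 CPM against 13.0, 12.2, 17.0, 7.30 and 31.9 in the histone-low cells. Those histone-low levels rest on 4 to 17 UMIs per library, so it entered the test through the histone-rich cells. Neither its rank nor its call is read as a result. Its groups did not overlap, and its promoter is shown because it lies on another chromosome than the scored genes (chr11:58961561-58961710, plus strand, GRCm38.p6).
Gm12260: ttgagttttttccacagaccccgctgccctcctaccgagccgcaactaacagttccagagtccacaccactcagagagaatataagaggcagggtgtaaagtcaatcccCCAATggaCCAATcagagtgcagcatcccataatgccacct
It holds CCAAT as 2 matches in these 150 bases and no TATAAA. As a histone gene that the score did not count, it is close in kind to the genes that chose the cells.

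**Figure D3:**
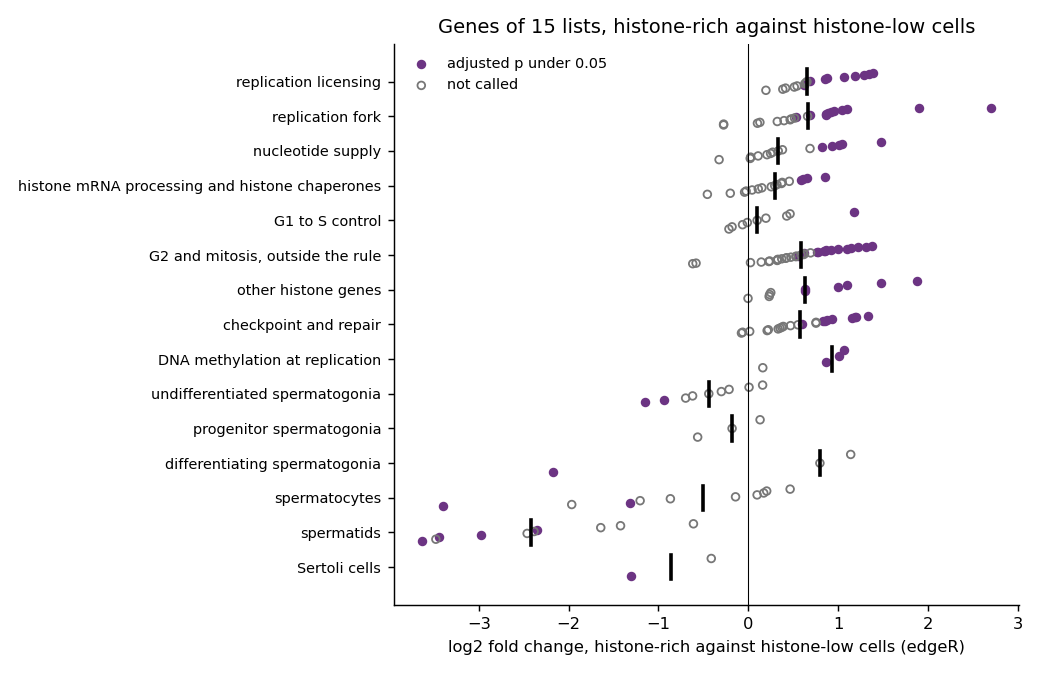
Log2 fold change of each tested gene of 15 lists between histone-rich and histone-low cells, on the horizontal axis, with 1 row per list. Filled points are genes with an edgeR adjusted p under 0.05, open points are genes that were not called, and black bars are list medians. The filled points of the replication, checkpoint and DNA methylation lists all lie above 0. The filled points of the lists of spermatocytes, spermatids and Sertoli cells rest on few UMIs in the histone-rich cells and are not read as results. Nor are the points of Etv5, Dmrtb1, 2810417H13Rik and H2afx, which entered the test mainly through a single group.

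The histone-rich cells were not without transcripts of late cell cycle genes. Of 33 genes of G2 and mitosis outside the rule 14 rose over the histone-low cells and none fell (median log2 fold change 0.59). Over all genes tested 6.79% rose. Cenpf, a kinetochore protein, was among the 14 (log2 fold change 0.56, SE 0.13, edgeR adjusted p = 0.00543), and its levels overlapped between the groups. Esco2, which acetylates cohesin in S phase, was at 159 to 235 CPM against 39.9 to 73.9 (log2 fold change 1.86, SE 0.22, edgeR adjusted p = 9.60e-07), with no overlap. Kif15, a spindle motor, rose by 1.65 (SE 0.26, edgeR adjusted p = 4.25e-05). The summed level of the G2 and mitosis list was 4338 to 6371 CPM in the histone-rich cells, 3067 to 4415 in the histone-low and 6955 to 9801 in the mitotic cells. The histone-rich cells of each library thus lay between the other groups.

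**Figure D4:**
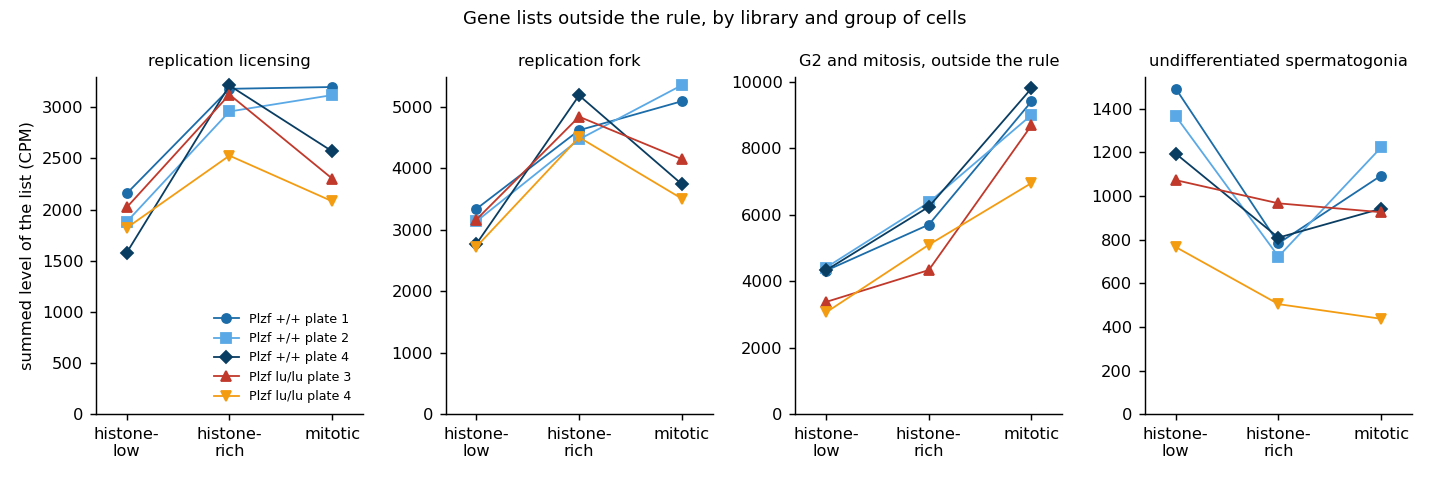
Summed level of 4 gene lists, in CPM, in histone-low, histone-rich and mitotic cells; each line is 1 library and each vertical axis starts at 0. The 2 replication lists are higher in histone-rich than in histone-low cells in all 5 libraries, and the list of G2 and mitosis is highest in the mitotic cells in all 5.

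At equal depth, single histone-rich cells carried more of the replication genes than histone-low cells. After each cell was thinned at random to 2000 UMIs, a histone-rich cell had UMIs of 5 to 24 of the 46 licensing and fork genes with a median of 12, a histone-low cell of 0 to 20 with a median of 8, and a mitotic cell had a median of 11. Pcna was found in 75 of 80 histone-rich cells (93.8%) and 80.8% of histone-low cells as deposited, and in 70.0% and 52.4% after thinning. Mcm6 was found in 46.3% of histone-rich and 24.1% of histone-low cells after thinning (77.5% and 57.4% as deposited). In 77 cells with over 0.5% of their UMIs on genes of spermatids, which no longer replicate, Pcna was found in 44.2% and Mcm6 in 15.6% after thinning (75.3% and 53.2% as deposited, median depth 8152 UMIs). The number of these genes per cell overlapped widely between the groups.

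Along the histone score the lists did not rise evenly. When all 1167 cells were ordered by score into 10 bins of 116 or 117 cells, the licensing and fork lists together summed to 4622 to 5628 CPM in bins 1 to 7, 6010 in bin 8, 8066 in bin 9 and 8215 in bin 10. Bin 9 had a median score of 0.338%. By library, bins 9 and 10 were at 8694 and 8224 in Plzf +/+ plate 1, 8217 and 8491 in Plzf +/+ plate 2, 6058 and 8458 in Plzf +/+ plate 4, and 8522 and 7776 in Plzf lu/lu plate 3, so bin 10 was the higher of the pair in 2 of these 4 libraries. The bins include mitotic cells. The pooled list of undifferentiated spermatogonia was at 1478 CPM in bin 1 and 958 in bin 10. By library it was at 1693 and 911 in Plzf +/+ plate 1, 1669 and 1120 in Plzf +/+ plate 2, 1429 and 984 in Plzf +/+ plate 4, and 993 and 958 in Plzf lu/lu plate 3, while Plzf lu/lu plate 4, with 2 and 5 cells, was at 188 and 516. These are sums over cells of all libraries, given as a description.

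**Figure D5:**
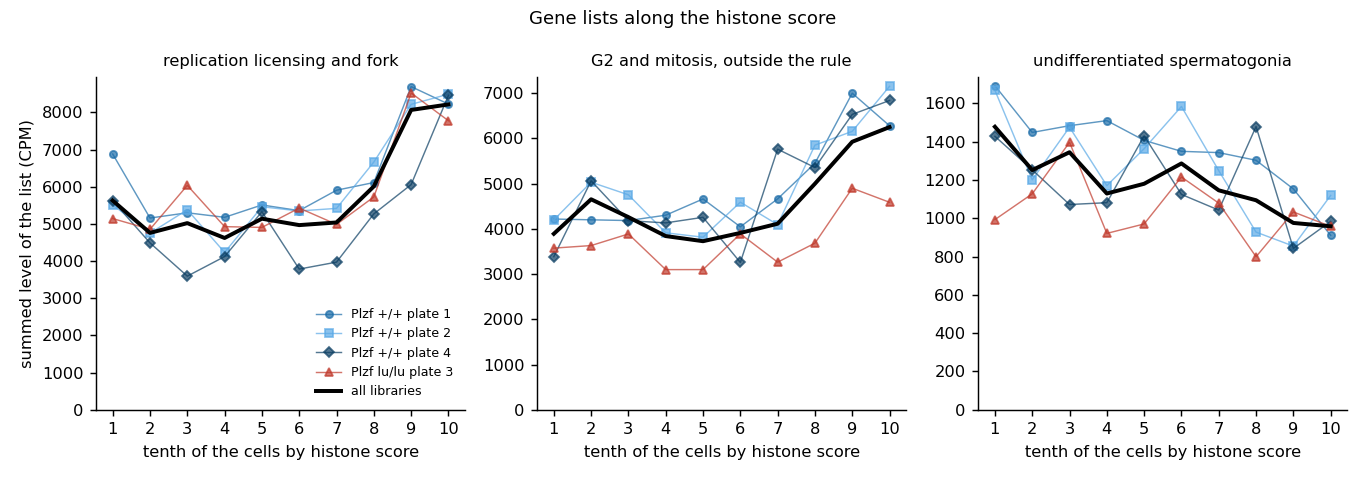
Summed level of 3 gene lists, in CPM, in 10 bins of cells ordered by histone score from low to high; the black line is all cells and the coloured lines are the 4 libraries with more than 29 cells. The replication lists are nearly level up to bin 7 and reach 8066 and 8215 in bins 9 and 10.

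The genes with the largest fitted falls had few UMIs in the histone-rich cells. The naming rule also took Ms4a5, Osbp2, Oaz3, Spem1, 1700009N14Rik, 4933411K16Rik, Gm9999, Gapdhs, Pgk2 and Fam71f2. The histone-rich cells held only 3 to 20 UMIs of each, with none in 1 to 4 of the 5 libraries, so these genes entered the test through their level in the histone-low cells, and neither their order nor their calls are read as results. Oaz3 is the testis form of antizyme, and Gapdhs and Pgk2 are glycolytic enzymes of spermatids and sperm. Pgk2 was at 13.1, 21.3, 51.1, 6.91 and 0 CPM in the histone-rich cells against 130, 319, 370, 163 and 391 in the histone-low cells. For the same reason no count of calls is given for the lists of spermatids, spermatocytes and Sertoli cells, whose summed levels are given above. Of the histone-low cells 87 of 584 (14.9%) had over 0.5% of their UMIs on a list of another cell type, against 6 of 80 histone-rich cells (7.50%). Without all such cells only 2 spermatid genes could be tested and neither passed, and 484 genes were called in both directions together. There, 7 of 17 licensing, 13 of 22 fork and 17 of 32 G2 and mitosis genes tested rose. In the main test 6.79% of all genes rose.

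The spermatogonial state of the histone-rich cells was mixed. Of 17 genes of undifferentiated spermatogonia only 9 could be tested (median log2 fold change -0.44). Gfra1 and Etv5 were called lower and none higher, beside 6.45% of all genes tested called lower. Gfra1, the GDNF receptor, was at 101, 128, 94.9, 138 and 45.9 CPM in the histone-rich cells and at 303, 262, 217, 136 and 144 in the histone-low cells (log2 fold change -0.94, SE 0.24, edgeR adjusted p = 0.00806). It was lower in 4 of 5 libraries, and in Plzf lu/lu plate 3 the groups were level. Etv5, a GDNF-induced transcription factor named after its value was seen, was at 0 to 69.1 CPM against 31.9 to 131. It was low in the histone-rich cells and entered the test largely through the histone-low cells, so its fitted fold is not given. Neither the call of Gfra1 nor that of Etv5 held without Plzf +/+ plate 1, without Plzf +/+ plate 4 or without the library covariate. Neither Zbtb16 (log2 fold change -0.21, SE 0.32, edgeR adjusted p = 0.727) nor Id4 (0.01, SE 0.29, edgeR adjusted p = 0.993) passed. Eomes had 9 UMIs in 7 of the 80 cells and 45 in 41 of the 584 histone-low cells, and T had 3 UMIs in 2 cells and 131 in 84, both too few for the test.

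Markers of differentiation varied among the libraries. Stra8 was at 356, 10.6, 234, 131 and 735 CPM in the histone-rich cells and at 118, 77.4, 69.8, 138 and 95.8 in the histone-low cells. It was higher in 3 libraries and lower in Plzf +/+ plate 2 and Plzf lu/lu plate 3, and did not pass (log2 fold change 1.14, SE 0.52, edgeR adjusted p = 0.230). Dmrtb1, a regulator of the switch from mitosis to meiosis, was at 9.80, 53.2, 80.3, 20.7 and 0 CPM against 62.2, 266, 263, 144 and 95.8 CPM in the histone-low cells. It was lower in all 5 libraries, but from 22 UMIs in the histone-rich cells, so it entered the test through the histone-low cells and its fitted fold is not given. Rhox13, a homeobox gene of differentiating germ cells, was at 94.7, 74.5, 94.9, 76.0 and 0 CPM in the histone-rich cells and at 45.4, 50.2, 50.9, 43.8 and 95.8 in the histone-low cells. It was higher in 4 of 5 libraries and did not pass (log2 fold change 0.80, SE 0.30, edgeR adjusted p = 0.0840). None of the 3 progenitor genes tested passed (median -0.18). Of 80 histone-rich cells 30 (37.5%) had a Gfra1 UMI, against 363 of 584 histone-low cells (62.2%), and after thinning to 2000 UMIs 11.3% and 35.4% did. Stra8 was found in 29 histone-rich cells (36.3%) and 106 histone-low cells (18.2%), or 21.3% and 10.1% after thinning. Of the 80 cells 15 had Gfra1 without Stra8 or Kit, 19 had Stra8 or Kit without Gfra1, 15 had both and 31 had none of the 3. These shares pool libraries that enter the groups in unequal number. By library, the share with Gfra1 was lower in the histone-rich than in the histone-low cells in 4 of 5 libraries, and Plzf +/+ plate 2 went the other way, with 7 of 8 cells (87.5%) against 129 of 175 (73.7%). Stra8 was found in 1 of 8 histone-rich cells there (12.5%) against 15.4% of histone-low cells, and its share was higher in the histone-rich cells of the other 4 libraries. Kit, the receptor for stem cell factor, was found in a higher share of histone-rich than of histone-low cells in all 5 libraries, at 16.1, 25.0, 16.7, 21.1 and 25.0% against 11.6, 8.00, 0.763, 5.56 and 7.14%. These shares rest on 1 to 5 histone-rich cells each, and after thinning Kit was found in 3.75% of histone-rich and 2.40% of histone-low cells.

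Against the mitotic cells none of the replication genes tested passed. Of the 117 mitotic cells 37 were themselves in the top 10% by histone score. Of 3079 genes tested 22 passed (0.715%), 9 higher (0.292%) and 13 lower (0.422%) in the histone-rich cells, and DESeq2 called 14. The 16 licensing and 21 fork genes tested had median log2 fold changes of 0.25 and 0.18. Prim1, for example, had a log2 fold change of -0.02 (SE 0.20, edgeR adjusted p = 0.995) and Pcna one of 0.21 (SE 0.16, edgeR adjusted p = 0.720). Of 36 G2 and mitosis genes outside the rule 7 were lower and none higher (median -0.59). The mitotic cells were chosen by 8 mitotic genes and cells high in these were removed from the histone-rich cells, so lower levels of other mitotic genes follow in part from the choice of cells and are a description. A p above the threshold does not show that the groups were alike. The count was 11 without Plzf lu/lu plate 3 and 34 without Plzf +/+ plate 1.

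Genes that act in mitosis are given here with that limit, with no test. Plk1, a kinase that drives entry into mitosis, was at 16.3, 42.5, 14.6, 48.4 and 91.9 CPM in the histone-rich cells and at 112, 106, 118, 216 and 164 in the mitotic cells. Ube2c, which helps to destroy cyclins, was at 0 to 138 against 211 to 324. Cenpa, the H3 variant of the centromere, was at 45.9 to 176 against 274 to 489. The levels of these 3 genes did not overlap between the groups, which was so for 2.01% of all genes tested in the lower and 0.39% in the higher direction. Trim59 and the neurofilament gene Nefm were lower by the same naming rule, with log2 fold changes of -1.29 and -1.45 (edgeR adjusted p = 0.00708 and 0.00284). Of the genes higher in the histone-rich cells, the histone gene Gm12260 was at 191 to 461 against 108 to 218 CPM. The histone-rich cells were chosen by histone messengers, so this follows in part from the choice of cells and is a description.

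Several transcripts that do not code for protein were higher in the histone-rich cells. Among the genes higher than in both other groups were AY036118 (log2 fold change 2.04 over the histone-low and 2.06 over the mitotic cells, edgeR adjusted p = 1.19e-07 and 0.0206), Gm26924 (1.19 and 1.10, edgeR adjusted p = 2.86e-11 and 0.000137) and mmu-mir-6236 (1.09 and 1.05, edgeR adjusted p = 0.00362 and 4.23e-05). Gm26924 was the most abundant of them, at 37705, 24262, 31100, 37938 and 26225 CPM in the histone-rich cells. Rpph1, the RNA of RNase P, rose by 1.71 (SE 0.21, edgeR adjusted p = 1.82e-06) and Rn7sk, the 7SK RNA, by 1.37 (SE 0.20, edgeR adjusted p = 8.67e-05) over the histone-low cells. RNA polymerase III makes both, and Rn7sk was named after its value was seen. Gm9800 and Gm23935 were among the 10 largest rises over the histone-low cells as well. Together Gm26924, mmu-mir-6236, Gm23935 and AY036118, a list made after the values were seen, took a median of 2.73% of a histone-rich cell's UMIs (0.535% to 18.2%), 1.26% of a histone-low and 1.42% of a mitotic cell's. All 4 rose over the histone-low cells (median log2 fold change 1.37), as did both RNA polymerase III transcripts tested (1.54). The RNA polymerase III list too was made after the values were seen, so these counts follow from the choice of genes. The summed level of the first 4 was higher in the histone-rich cells in each of the 5 libraries, and 64 of 80 histone-rich cells (80.0%) were above the median of their own library, against 40.1% of histone-low cells. Cells at or below that median, 16 histone-rich and 350 histone-low, gave 63 rises among 5453 genes tested (1.16%), with 3 of 17 licensing genes (median log2 fold change 0.79), 4 of 23 fork genes (0.72), 2 of 22 checkpoint and repair genes (0.47), 1 of 35 G2 and mitosis genes (0.35) and 0 of 4 DNA methylation genes (0.49). Cells above it, 64 and 234, gave 85 rises among 3826 genes (2.22%), with 4 of 14 licensing genes (0.65), 5 of 18 fork genes (0.53), 5 of 19 checkpoint and repair genes (0.62), 8 of 26 G2 and mitosis genes (0.73) and 3 of 4 DNA methylation genes (0.83). The part of these transcripts in the results was not tested, and neither was whether their counts hold ribosomal RNA or other RNA without a poly(A) tail.

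Within the histone-rich cells few genes passed the test between genotypes. Zbtb16, the mutated gene, was at 62.1, 53.2 and 58.4 CPM in Plzf +/+, and at 27.6 and 0 in Plzf lu/lu, from 36 UMIs in all, too few for the test. Of 3589 genes tested 2 passed (0.0557%), 1 higher (0.0279%) and 1 lower (0.0279%) in Plzf lu/lu. Rps15a-ps8, a ribosomal protein pseudogene, was at 114, 74.5 and 117 CPM in Plzf +/+ and 1278 and 1653 in Plzf lu/lu (log2 fold change 3.71, SE 0.26, edgeR adjusted p = 6.52e-08). The histone-low cells had 88.2 to 124 in Plzf +/+ and 934 to 987 in Plzf lu/lu, so the difference was not limited to the histone-rich cells. Its reads may be shared with the parent gene and its other copies. Malat1, a nuclear noncoding RNA, was at 1966, 1776 and 1642 in Plzf +/+ and 877 and 643 in Plzf lu/lu (log2 fold change -1.18, SE 0.21, edgeR adjusted p = 0.0339), and without the cell that carries T and NK cell transcripts 1 gene passed. The histone-low cells had 2583, 1781 and 1918 CPM of Malat1 in Plzf +/+ and 612 and 1422 in Plzf lu/lu, the same direction. Neither gene overlapped between the genotypes. The number called was 34 without Plzf +/+ plate 1, 12 without Plzf +/+ plate 2, 1 without Plzf +/+ plate 4 and 36 without Plzf lu/lu plate 4, where 1 Plzf lu/lu library was left.

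No gene passed the test of whether the contrast of histone-rich with histone-low cells differed between genotypes. Of 6742 genes tested for this interaction none had an edgeR adjusted p under 0.05 (smallest 0.0975), while 343 had an unadjusted p under 0.05, and DESeq2 called 0. The median difference in log2 fold change, Plzf lu/lu minus Plzf +/+, was -0.17 for the 17 licensing genes and -0.18 for the 23 fork genes tested, beside -0.19 over all genes tested. Leaving out 1 library at a time gave 1 to 5 calls. Plate and genotype cannot be told apart here except on plate 4, which holds 4 Plzf lu/lu histone-rich cells.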

How the data were processed

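Testis cells were sorted by tdTOMATO into 4 plates of 384 wells for 3′ RNA-seq. The authors deposited 1 table per genotype whose values are raw counts of UMIs (8 bases long) per gene symbol and cell, not normalized. The submitters' processing notes name bcl2fastq 2.18.0.12, Picard 2.9.3, STAR 2.5.4a and build GRCm38. Cell names gave the plate, and the table gave the genotype. The 82 cells under 2000 UMIs were left out. The members and gene lists were chosen with earlier results of these data known.

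UMIs were summed per library and group of cells, filtered with filterByExpr, scaled by TMM and tested with glmQLFit and glmQLFTest of edgeR 4.0.16 (R 4.3.3), with the library as covariate where each library held both groups. A gene was called at p under 0.05 after Benjamini-Hochberg adjustment over the genes tested. Histone genes of the score and the 8 mitotic genes stayed in the library sizes but were given no p. Levels in CPM are counts for every 1000000 UMIs of the summed cells, without TMM. The 5 libraries had a median depth of 4203.5 to 9732.5 UMIs per histone-rich cell. Thinning drew 2000 UMIs per cell with seed 1. The procedure was tested on simulated data.

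Genes named are the 4 of highest level of each list on replication, the cell cycle, other histones, DNA methylation and spermatogonial state, the largest changes called (10 each way against histone-low and 5 each way against mitotic cells, with a mean of at least 20 CPM and 1 direction in every library with at least 10 histone-rich cells), the 10 leading histone genes, the given markers, the 8 mitotic genes, Zbtb16, Gfra1, Eomes, T and Id4, and the genes called between genotypes. All other genes, such as the further calls of a list, were named after their values were seen, and 1 withheld item is not reported here. Promoters are from RefSeq and stem-loops from GENCODE vM1 transcripts, searched by a script. Alternatives were DESeq2 1.42.0, no filter, each library left out, no covariate, other cut-offs, thinned cells, a score without testis-specific and polyadenylated histone genes, the removal of deep, mitotic or other-type cells, and, chosen after seeing the data, cells with few or many noncoding UMIs, removal of 1 cell, and a replicate block.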

Additional observations from a re-analysis of the deposited data

How the results depend on the processing

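Against the histone-low cells, the 651 calls became 1053 without the filter on low counts, 202 without the library covariate, 353 for the top 5% by score, 66 in cells thinned to 2000 UMIs and 1162 with mitotic cells kept, and 307 to 830 when 1 library was left out. Chosen after seeing the data, cells with few noncoding UMIs gave 368 and cells with many gave 132. The list counts moved as well. With DESeq2 5 of 17 licensing, 7 of 21 fork and 6 of 33 G2 and mitosis genes rose. Without Plzf +/+ plate 1 these were 3 of 13, 6 of 16 and 3 of 21, and for the top 20% by score 12 of 18, 14 of 24 and 19 of 37. Against mitotic cells, the 22 calls became 14 with DESeq2, 40 without the filter, 12 without the covariate and 11 to 34 with 1 library left out. Between genotypes, the 2 calls became 1 with DESeq2, 25 without the filter, 1 without the cell with T and NK cell transcripts (chosen after seeing the data) and 1 to 36 with 1 library left out, and the interaction, with 0 calls, gave 4 without the filter and 1 to 5 with 1 library left out. The difference in the share of histone-rich cells was -0.353 percentage points for the top 5% and -0.473 to 7.07 with 1 library left out. The cause of these changes was not tested.

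Of 1388 log2 fold changes of 68 named genes against the histone-low cells, 1191 kept direction and side of the threshold, 95 lost the call, 45 gained it and 57 changed sign, in 18 genes of which none was called. Of 39 called genes 4 (Mcm6, Gmnn, Lig1 and Rpph1) were tested and called in all 22 alternatives, and 8 more, among them Rrm1, Prim1, 2810417H13Rik, Esco2 and Gm12260, were called in each alternative where they passed the filter. The limit given above for the calls of 2810417H13Rik and Gm12260 holds here too. Of 99 values of 10 genes against the mitotic cells 84 kept both, 15 lost the call and 0 changed sign. Signs changed in thinned cells (Mcm2 -0.19, Nap1l1 -0.015, Rbbp7 -0.026, Cdk4 -0.025 and Atr -0.14), in cells with few noncoding UMIs (Mcm2 -0.053, Rfc1 -0.038, Paics -0.17, Ccnd2 0.029, Smc4 -0.18, Cenpe -0.053, Cenpa -0.21, Atr -0.60, Nanos3 0.16 and Id4 -1.13) and with many (Rbbp7 -0.12, Cdca7 -0.058, Bmi1 -0.045 and Sohlh1 -0.080). They changed for the top 5% (Rbbp7 -0.17, Smc4 -0.30, Atr -0.33, Cdca7 -0.034, Bmi1 -0.18, Zbtb16 0.14 and Id4 -0.38) and the top 20% by score (Atr -0.047, Nanos3 0.35 and Id4 -0.28), without the filter (Rbbp7 -0.023, Atr -0.12 and Id4 -0.12) and with DESeq2 (Atr -0.019, Sohlh1 -0.026 and Id4 -0.0085). The score without testis-specific and poly(A) genes gave Atr -0.30 and Id4 -0.078, the removal of cells with markers of other types Atr -0.31 and Id4 -0.16, that of deep cells Atr -0.22 and Id4 -0.064, histone-low cells without mitotic cells Atr -0.0091 and Id4 -0.031, and mitotic cells kept Atr -0.075 and Sohlh1 -0.017. A minimum of 4000 UMIs gave Sohlh1 -0.048, Plzf +/+ libraries alone Id4 -0.37, and removal of the cell with T and NK cell transcripts Id4 -0.099. With 1 library left out the ranges were Rbbp7 -0.0016 to 0.21, H3f3a -0.026 to 0.32, Atr -0.36 to 0.18, Sohlh1 -0.18 to 0.35, Nanos3 -0.090 to 0.0097, Id4 -0.28 to 0.24.

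The library numbers in the labels recur in both genotypes, but libraries with the same number are on different plates. Deviations of same-numbered libraries from their genotype's mean over 3626 genes had correlations of -0.072 and -0.038, and those of the pair on plate 4 -0.037. With only 2 Plzf lu/lu libraries, the deviations of 1 mirror those of the other, so these correlations cannot decide whether samples are paired. The numbers were not taken to pair the samples. With the number as a replicate block, added after seeing the data, 1 gene was called between genotypes and 4 for the interaction. A plate term left no residual degrees of freedom. With 80 cells, 8 and 4 of them in the smallest libraries, few low genes passed the filter. At 2000 UMIs per cell the filter kept 4 licensing and 7 fork genes, of which 2 and 3 rose, beside 66 calls in all. The 66 calls count both directions, and list counts this small are given as a description.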
